A study of Homo sapiens with 18 samples.

Results

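The transcripts of 10 heat shock chaperone genes were followed across 18 RNA sequencing libraries of MDA-MB-231 cells, an established human breast cancer line with mesenchymal features. The genes were chosen as a list of symbols and are HSPA8, HSPA1A, HSPA1B, DNAJB1, HSPH1, HSP90AA1, HSP90AB1, HSPB1, HSPD1 and BAG3, and all 10 were found by symbol among the 62830 genes of the deposited table. The list was chosen with earlier results of these data known. Counts among the 10 genes set beside those of all genes are therefore descriptions. All 10 passed the expression filter, which left 15764 genes. HSPA1A did so without the untreated knockout libraries, none of which reached 1 FPKM, a fragment count normalised for transcript length and library depth. The libraries fall into 6 groups of 3. Wild-type cells and TRIM27 knockout cells (TRIM27 belongs to the tripartite motif ubiquitin ligases) carried no treatment label, or had received olaparib (a PARP inhibitor, 2 µM for 24 h) or an siRNA against PARP1, called siPARP1 (labelled 100 pM, 48 h, delivered with a lipid reagent). The treatment protocol mentions DMSO and a non-targeting siRNA as controls, but none of the 18 library labels names either, so the 6 libraries with no treatment label are called untreated here and were the only controls. The treatments also differ in duration and delivery, which cannot be told apart from the agents. Nothing in the labels says whether the knockout cells are 1 clone. Nor do they tie replicates to separate dishes or passages, and the p-values below therefore reflect the spread between these libraries, which may be technical.

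Heat shock proteins bind unfolded or partly folded proteins and keep them from aggregating. HSP70 proteins such as HSPA8 and HSPA1A work in cycles of ATP binding and hydrolysis that J-domain proteins such as DNAJB1 start and that exchange factors such as HSPH1 and BAG3 reset, and clients such as kinases and steroid receptors are passed on to HSP90. The heat-inducible members are known targets of the transcription factor HSF1, and cancer cells often hold several of them at high levels. Of the 10 genes, HSPD1 encodes the chaperonin HSP60, which is known as a protein of the mitochondrial matrix. It is kept here as a listed member, although the other 9 act mainly in the cytosol and nucleus.

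All libraries carry the same batch label. Summed FPKM ran from 812699 to 910313 per library, the relative depth from 0.748 to 1.237 times that of the first wild-type library, and the absolute depth is unknown. The make-up of the sum differed with treatment. Loci without a gene name held 47.77 to 49.77% of it in untreated and 43.41 to 47.26% in treated libraries. Mitochondrially encoded genes held 19 to 22.06% of the sum over named genes in untreated and 23.5 to 28.19% in treated libraries. The comparisons were also run under 2 other scalings. Log-scale values of 2 libraries of a group correlated at 0.9926 to 0.9951 across genes. In the check of the targeted genes, TRIM27 read 1.45 ± 0.243 FPKM in untreated wild-type libraries and 0.623 ± 0.0663 FPKM in untreated knockout libraries (SD, n = 3). It read 1.39 and 0.629 FPKM under olaparib, and 1.95 ± 0.437 and 0.99 ± 0.048 FPKM under siPARP1, where both were above untreated (limma, adjusted p = 0.0333 and 0.0182) and the knockout was still below wild type (-0.56 ± 0.096, adjusted p = 0.000775). PARP1 read 56.2 ± 2.57 FPKM in untreated and 10.7 ± 0.883 FPKM in siPARP1-treated wild-type cells. The mesenchymal marker VIM read 1564 to 2710 FPKM in all libraries. Of the epithelial markers, KRT8, KRT18 and KRT19 were high, with summed epithelial values of 955 to 1204 FPKM under siPARP1 and 1669 to 2837 FPKM otherwise, whereas EPCAM and CDH1 stayed at or under 0.31 FPKM, although the labels call the cells epithelial. Leukocyte, endothelial and adipocyte markers summed to at most 1.08, 0.0338 and 0.0849 FPKM, and CD3E was listed at 0 in all 18 libraries.

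Together the 10 genes read 2669 ± 104 FPKM in untreated wild-type cells and 2069 ± 28.5 FPKM in untreated knockout cells (SD, n = 3). HSPA8 held 26.5% ± 2.86 of the sum in wild-type and 15% ± 0.41 in knockout cells, and without it the sums were 1960 and 1759 FPKM. Under olaparib the sums were 2651 ± 38.6 and 2560 ± 70.4 FPKM in wild-type libraries and knockout cells, and under siPARP1 they were 3264 ± 265 and 3161 ± 181 FPKM. Untreated knockout cells had the lowest sum of the 6 groups, and all 3 of their libraries (2047 to 2101 FPKM) lay under the other 15. In bulk RNA, fewer cells that express a gene and less RNA per cell cannot be told apart.

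**Figure D1:**
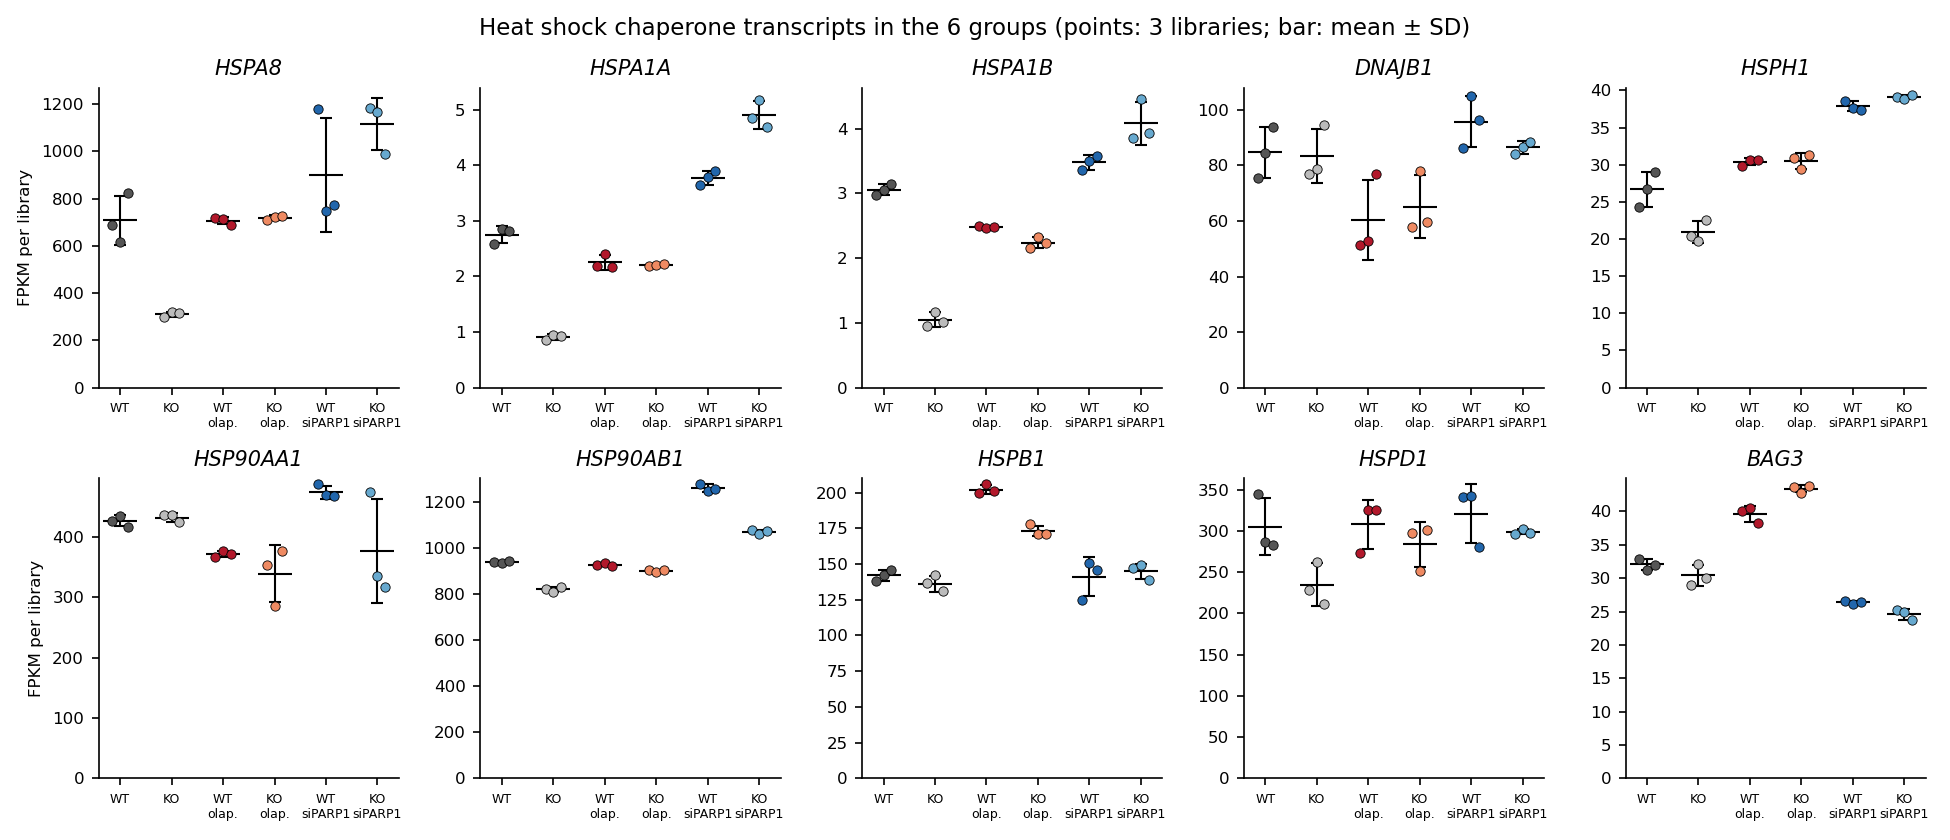
FPKM of each of the 10 genes in every library (points), by group (WT, wild type; KO, TRIM27 knockout; olap., olaparib), with the mean and SD of 3 libraries; each panel has its own linear axis from 0. HSPA8, HSPA1A, HSPA1B and HSPH1 are lowest in untreated knockout cells, and HSPB1 and BAG3 are highest under olaparib.

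Heat shock elements are shown next because most of the 10 genes share them near their start sites. The sequences were not used to choose the genes. The list holds known HSF1 targets, however, so a high share is built into it and is no separate observation. A heat shock element is an array of GAA units that alternate in orientation with 2 bases between them. RefSeq promoter windows (GRCh38.p14, 250 bases before to 50 after the start) were found for all 10 genes, 16 windows in all, and were searched on both strands for 2 units (GAANNTTC or TTCNNGAA) and for 3 units (TTCNNGAANNTTC or GAANNTTCNNGAA, each of which holds 2 overlapping pairs). A pair was present in 13.5% of all 35116 windows and a triple in 0.49%. Among the 10 genes, 8 had a pair in at least 1 window and 4 had a triple, against 13.6% and 0.455% of the 10110 tested genes with a window. HSPH1 and BAG3 had neither in theirs. The stretches below are 30 bases long, 5′ to 3′ on the strand of the gene, with the paired or tripled units and their spacers in capitals and the first base of the capitals counted from the RefSeq start.
HSPA8, first base at -230, chr11:123062346-123062375, minus strand: ggcgagcttGAAAGTTCCAGAAcgctgcgg
HSPA8, first base at -55, chr11:123062171-123062200, minus strand: gcgggccccTTCTGGAAGGTTCtaagatag
HSPA1A, first base at -106, chr6:31815426-31815455, plus strand: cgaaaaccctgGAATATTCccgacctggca
HSPA1B, first base at -105, chr6:31827622-31827651, plus strand: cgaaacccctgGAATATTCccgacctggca
HSP90AA1, first base at -88, chr14:102087112-102087141, minus strand: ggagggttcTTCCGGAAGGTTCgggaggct
HSP90AA1, first base at -68, chr14:102087094-102087123, minus strand: gttcgggaggcTTCTGGAAaaagcgccgcg
HSP90AB1, first base at -165, chr6:44247769-44247798, plus strand: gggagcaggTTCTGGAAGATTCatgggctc
HSP90AB1, first base at -112, chr6:44247822-44247851, plus strand: ctgagattgTTCTGGAAGCTTCtggattct
DNAJB1, first base at -77, chr19:14518456-14518485, minus strand: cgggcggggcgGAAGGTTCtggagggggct
DNAJB1, first base at -47, chr19:14518426-14518455, minus strand: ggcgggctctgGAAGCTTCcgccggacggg
HSPB1, first base at -182, chr7:76302480-76302509, plus strand: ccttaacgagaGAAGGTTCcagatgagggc
HSPD1, first base at -245, chr2:197500061-197500090, minus strand: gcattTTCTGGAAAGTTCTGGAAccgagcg

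These are the matches that lie before the start, and DNAJB1 had a further pair from position 2 after it. HSPA8 and HSP90AB1 each held 2 separate triples, HSP90AA1 held 1 triple and a pair after it, and the run in HSPD1 held 4 units in a row and so 2 overlapping triples. HSPA1A, HSPA1B, HSPB1 and DNAJB1 held pairs only. The 2 stretches of HSPA1A and HSPA1B share 29 of 30 bases. A match is a description of the letters in these windows and not a measurement of binding, and no match in HSPH1 or BAG3 says only that these letters are not in the window searched.

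HSPA8 encodes the constitutive HSP70 of the cytosol (HSC70), which folds new proteins and uncoats clathrin vesicles, and lies on chromosome 11 (chr11:123057489-123063230, GENCODE 29 on GRCh38, minus strand). It was the member with the largest shift in FPKM between groups. Untreated wild-type libraries read 687, 618 and 823 FPKM, and untreated knockout libraries read 297, 318 and 314 FPKM. The groups did not overlap, and HSPA8 in knockout cells was at 43.6% of wild type, a log2 change of -1.18 ± 0.14 (SE; limma, adjusted p = 3.12e-05). Under olaparib HSPA8 read 718, 713 and 689 FPKM in wild-type libraries and 709, 722 and 727 FPKM in knockout cells. These values overlapped, and HSPA8 differed between the genotypes by 0.03 ± 0.14 (adjusted p = 0.941). Under siPARP1 they were 1179, 747 and 775 FPKM in wild-type libraries and 1185, 1168 and 987 FPKM in knockout cells.

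The wild-type libraries under olaparib lay within the range of the untreated ones, with a log2 change of 0.00 ± 0.14 (adjusted p = 0.982), and HSPA8 in knockout cells rose to 232% of the untreated level, a log2 change of 1.21 ± 0.14 (adjusted p = 6.49e-06). Under siPARP1 it rose to 360% in knockout cells, by 1.84 ± 0.14 (adjusted p = 5.77e-08). The wild-type change under siPARP1, 0.32 ± 0.14, did not pass (adjusted p = 0.0714), and the first siPARP1 library (1179 FPKM) stood apart from the other 2. Without the second or the third siPARP1 library, or without the third untreated library, the change was 0.44, 0.41 or 0.43 and passed (adjusted p = 0.0248, 0.0411 and 0.0287). Without the first siPARP1 library of wild-type cells, the knockout was above wild type under siPARP1 by 0.54 (adjusted p = 0.0019), where all libraries gave 0.33 ± 0.14 (adjusted p = 0.108). HSPA8 transcripts were divided unevenly in the siPARP1 wild-type libraries. ENST00000534319 read 838.312, 294.846 and 307.083 FPKM, and ENST00000534624 read 16.608, 234.016 and 309.967 FPKM. ENST00000528292 read 354.068 FPKM in the third untreated wild-type library. It read 253.631 FPKM in the second olaparib-treated one, whose gene value lay within its group. Whether the division moved the gene values was not tested.

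The response of HSPA8 was larger in the knockout under both treatments. The interaction with genotype was 1.21 ± 0.2 for olaparib (adjusted p = 0.0043) and 1.52 ± 0.2 for siPARP1 (adjusted p = 0.000401). The untreated knockout libraries enter the genotype comparison, both treatment comparisons in knockout cells and both interactions, so these values share them and are not separate observations of a change.

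HSPA8 hosts the small nucleolar RNAs SNORD14C, SNORD14D and SNORD14E on its own strand, and it has 17 processed copies in the table, which can take reads from it. The copies summed to 0.574 to 0.803% of the HSPA8 value. Of the 3 copies that passed the filter, 3 were lower in untreated knockout cells and 3 were higher in knockout cells under each treatment, in the direction of HSPA8. Among all genes 10.9% were lower in untreated knockout cells, and 25.2% and 31.9% were higher in knockout cells under olaparib and siPARP1. Reads shared with HSPA8 cannot be told apart from transcription of the copies.

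HSPA1A (chr6:31815464-31817946) and HSPA1B (chr6:31827735-31830255) encode the stress-inducible HSP70, which is low in unstressed cells of many tissues and induced by heat. Their coding sequences are 1923 bases each and differ at 4 bases (99.8% identity), so reads cannot be assigned to either with certainty, and HSPA1B also overlaps the annotated gene AL671762.1 on the same strand. Both read low next to HSPA8. How reads that match both genes were counted is not known, so their true level cannot be judged from these values. HSPA1A read 2.58, 2.85 and 2.82 FPKM in untreated wild-type libraries and 0.859, 0.952 and 0.926 FPKM in untreated knockout libraries. Under olaparib it read 2.18, 2.4 and 2.16 FPKM in wild-type libraries and 2.19, 2.21 and 2.23 FPKM in knockout cells. Under siPARP1 it read 3.65, 3.78 and 3.9 FPKM in wild-type libraries and 4.84, 5.18 and 4.69 FPKM in knockout cells. The knockout was thus below wild type without treatment, overlapped it under olaparib and was above it under siPARP1.

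HSPA1A fell by 0.97 on the log2(FPKM + 1) scale in untreated knockout cells (-0.97 ± 0.052, adjusted p = 1.10e-08), with a mean FPKM at 33.1% of wild type. At values this low the pseudocount of 1 makes the log2 change smaller than the change in FPKM. Under siPARP1 HSPA1A was higher in knockout than in wild-type cells by 0.31 ± 0.052 (adjusted p = 0.000671). It fell in wild-type cells under olaparib (-0.21 ± 0.052, adjusted p = 0.0044) and rose in knockout cells (0.75 ± 0.052, adjusted p = 3.17e-08). Under siPARP1 it rose in both, by 0.35 ± 0.052 in wild-type cells (adjusted p = 5.80e-05) and by 1.63 ± 0.052 in knockout cells (adjusted p = 5.26e-12), where its mean FPKM was 537% of the untreated value. The interactions were 0.96 ± 0.074 for olaparib (adjusted p = 6.24e-06) and 1.28 ± 0.074 for siPARP1 (adjusted p = 1.51e-07). With a pseudocount of 0.1, HSPA1A changed by -1.49 in untreated knockout cells and by 1.19 in knockout cells under olaparib, and its olaparib interaction was 1.47.

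HSPA1B followed the same order of groups. It read 2.98, 3.05 and 3.14 FPKM in untreated wild-type and 0.952, 1.17 and 1.02 FPKM in untreated knockout libraries, and the change was -0.99 ± 0.056 (adjusted p = 1.95e-08). In knockout cells it rose by 0.66 ± 0.056 under olaparib (adjusted p = 2.75e-07) and by 1.31 ± 0.056 under siPARP1 (adjusted p = 1.11e-10). In wild-type cells it fell by 0.22 under olaparib (adjusted p = 0.00527). Its interactions were 0.88 ± 0.08 (adjusted p = 2.49e-05) and 1.17 ± 0.08 (adjusted p = 8.49e-07). Its rise in wild-type cells under siPARP1 was small, 0.14 ± 0.056 (adjusted p = 0.0455). That call was lost in 11 of 14 alternatives (adjusted p = 0.0536 to 0.59), including the removal of any of the 3 untreated libraries or of the second or the third siPARP1 library, where the change was 0.13 to 0.16. The difference of 0.18 ± 0.056 between the genotypes under siPARP1 (adjusted p = 0.0319) was lost in 7 of 15 alternatives, among them the removal of the first (0.16, adjusted p = 0.101) or second (0.18, adjusted p = 0.0659) wild-type library or of the second knockout library (0.13, adjusted p = 0.142). With bin medians of 10 Mb removed it was 0.28 (adjusted p = 0.00336). The sum of HSPA1A and HSPA1B, which does not depend on how reads were split between them, changed by -1.20 in untreated knockout cells (adjusted p = 1.53e-09), by 0.88 under olaparib (adjusted p = 7.52e-09) and 1.75 under siPARP1 in knockout cells (adjusted p = 3.03e-12), and by -0.25 and 0.28 in wild-type cells (adjusted p = 0.00156 and 0.000535).

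The bases just before the GENCODE 29 start of each gene (GRCh38, within the RefSeq window) are given because they show how far the resemblance of the copies goes beyond the coding sequence, with the heat shock element in capitals.
HSPA1A, chr6:31815293-31815463, plus strand: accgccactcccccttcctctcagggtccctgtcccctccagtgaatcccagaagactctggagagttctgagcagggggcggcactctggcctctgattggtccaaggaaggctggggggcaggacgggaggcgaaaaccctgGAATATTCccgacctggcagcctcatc
HSPA1B, chr6:31827488-31827734, plus strand: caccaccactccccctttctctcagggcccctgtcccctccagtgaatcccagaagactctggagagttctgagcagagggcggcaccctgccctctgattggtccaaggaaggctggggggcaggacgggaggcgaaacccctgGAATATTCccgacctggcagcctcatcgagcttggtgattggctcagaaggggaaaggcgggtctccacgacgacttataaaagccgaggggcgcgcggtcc

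The partners that drive and reset the HSP70 cycle moved in different directions. HSPH1 (HSP110, chr13:31134974-31162388), an exchange factor that is also a holdase, was lowest in untreated knockout cells, as the HSP70 genes were. It read 24.3, 26.8 and 29 FPKM in untreated wild-type and 20.4, 19.7 and 22.5 FPKM in untreated knockout libraries, which did not overlap (-0.34 ± 0.059, adjusted p = 0.000834). Under olaparib HSPH1 ranged from 29.8 to 30.6 FPKM in wild-type and from 29.4 to 31.3 FPKM in knockout cells, and under siPARP1 from 37.4 to 38.6 and from 38.8 to 39.4 FPKM. HSPH1 was highest under siPARP1 and lowest in untreated knockout cells.

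HSPH1 rose under siPARP1 by 0.49 ± 0.059 in wild-type (adjusted p = 6.27e-06) and 0.88 ± 0.059 in knockout cells (adjusted p = 1.28e-08), and the interaction was 0.38 ± 0.083 (adjusted p = 0.015). Under olaparib it rose by 0.53 ± 0.059 in knockout cells (adjusted p = 3.93e-06). The olaparib rise in wild-type cells, 0.18 ± 0.059 (adjusted p = 0.0199), was lost with either other scaling (0.13) and without the first untreated library (0.12, adjusted p = 0.106) or the second or the third olaparib library (0.18, adjusted p = 0.0535 and 0.0544). The olaparib interaction, 0.35 ± 0.083 (adjusted p = 0.0369), was lost on removal of any of 9 of the 12 libraries (0.29 to 0.35, adjusted p = 0.0666 to 0.0865), all but the first of untreated wild-type, the third of untreated knockout and the second of olaparib-treated knockout cells.

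BAG3 (chr10:119651370-119677819), an exchange factor that links HSP70 to small heat shock proteins and to autophagy, moved in opposite directions under the treatments. It read 32.9, 31.2 and 32 FPKM in untreated wild-type and 28.9, 32.1 and 30 FPKM in untreated knockout cells. Olaparib-treated libraries read 40, 40.5 and 38.2 FPKM in wild-type libraries and 43.7, 42.8 and 43.8 FPKM in knockout cells, and siPARP1-treated libraries read 26.6, 26.2 and 26.5 FPKM and 25.3, 24.9 and 23.7 FPKM. Every olaparib library was above and every siPARP1 library below all 6 untreated libraries.

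BAG3 rose under olaparib by 0.30 ± 0.044 in wild-type (adjusted p = 6.51e-05) and by 0.50 ± 0.044 in knockout cells (adjusted p = 3.23e-07), and fell under siPARP1 by 0.27 (adjusted p = 0.000116) and by 0.29 (adjusted p = 5.10e-05). These 4 calls held under all alternatives run, and the fall in knockout cells was -0.45 when values were scaled to a common sum over named genes. The genotypes did not pass the test without treatment (-0.08 ± 0.044, adjusted p = 0.25) or under siPARP1 (-0.10 ± 0.044, adjusted p = 0.126). Under olaparib the knockout read 0.13 ± 0.044 higher (adjusted p = 0.0649), and this passed with median-of-ratios scaling (0.15, adjusted p = 0.0298), with bin medians removed (0.16, adjusted p = 0.0295) and with the filter at 5 FPKM (0.13, adjusted p = 0.0491). The olaparib interaction of 0.21 ± 0.062 (adjusted p = 0.0906) passed only without the second untreated knockout library (0.25, adjusted p = 0.0433).

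DNAJB1 (HSP40, chr19:14514770-14529770), the J-domain protein that pairs with the inducible HSP70, was lower under olaparib. Untreated libraries read 75.6, 84.6 and 93.9 FPKM in wild-type libraries and 77, 78.6 and 94.7 FPKM in knockout cells. Olaparib-treated libraries read 51.5, 52.7 and 77 FPKM and 57.7, 78.1 and 59.6 FPKM, and siPARP1-treated libraries read 86.2, 105 and 96.2 FPKM and 84, 86.8 and 88.6 FPKM. In each genotype 1 olaparib library lay within the range of the untreated ones.

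DNAJB1 fell under olaparib in wild-type cells by 0.50 (-0.50 ± 0.15, adjusted p = 0.014), a call that was lost without the third untreated (-0.42, adjusted p = 0.0598) or the first (-0.40, adjusted p = 0.0663) or second (-0.42, adjusted p = 0.0626) olaparib library. In knockout cells the change of -0.36 ± 0.15 did not pass (adjusted p = 0.0628) and reached -0.50 without the second olaparib library (adjusted p = 0.0185). It also passed under both other scalings (-0.39 and -0.45, adjusted p = 0.0441 and 0.0247). No genotype comparison of DNAJB1 passed (-0.02, 0.12 and -0.14, adjusted p = 0.946, 0.698 and 0.554). DNAJB1 overlaps TECR on the opposite strand, and no source used here gives the strand setting of the counting, so reads of either cannot be told apart. The listed transcripts of DNAJB1 summed to 20.69 to 80.96% of its gene value, and from transcript sums the wild-type change under olaparib was -0.12 (adjusted p = 0.863).

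The HSP90 pair was the most abundant group. HSP90AB1 (chr6:44246166-44253888) encodes the constitutive cytosolic HSP90 beta, and HSP90AA1 (chr14:102080738-102139699) the more inducible HSP90 alpha. HSP90AB1 was tight within groups, with an SD of 0.481 to 1.28% of the mean. It read 937, 932 and 942 FPKM in untreated wild-type and 820, 808 and 828 FPKM in untreated knockout cells. Under olaparib the libraries lay at 921 to 934 and 896 to 903 FPKM, and under siPARP1 at 1247 to 1278 and 1060 to 1075 FPKM. Knockout libraries were thus below wild-type libraries in all 3 conditions, by a margin that passed the test without treatment (-0.19 ± 0.031, adjusted p = 0.00037) and under siPARP1 (-0.24 ± 0.031, adjusted p = 6.48e-05) but not under olaparib (-0.04 ± 0.031, adjusted p = 0.451).

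HSP90AB1 rose under siPARP1 by 0.43 ± 0.031 in wild-type (adjusted p = 3.14e-08) and 0.38 ± 0.031 in knockout cells (adjusted p = 8.31e-08). The 2 rises differed by -0.04 ± 0.043 (adjusted p = 0.658). Scaled to a common sum over named genes, the knockout rise was 0.23 (adjusted p = 2.25e-06). Under olaparib HSP90AB1 rose in knockout cells by 0.14 ± 0.031 (adjusted p = 0.00191), which did not pass under that scaling (0.05, adjusted p = 0.102). The same scaling called a fall of 0.07 in wild-type cells under olaparib (-0.07, adjusted p = 0.0261), where the main value was -0.02 ± 0.031 (adjusted p = 0.707). The olaparib interaction, 0.15 ± 0.043 (adjusted p = 0.075), passed from transcript sums and with the filter at 5 FPKM (0.15 for both, adjusted p = 0.0104 and 0.0422). The chromosome 6 bin of 10 Mb that holds HSP90AB1 had median genotype differences of -0.10, -0.11 and -0.15 in the 3 conditions over 72 genes. With bin medians removed, the HSP90AB1 differences were -0.10 without treatment and -0.09 under siPARP1 (adjusted p = 0.00552 and 0.0134), and 0.06 under olaparib (adjusted p = 0.0903).

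HSP90AA1 read 427, 435 and 417 FPKM in untreated wild-type and 436, 437 and 424 FPKM in untreated knockout cells, with no difference that passed (0.02 ± 0.12, adjusted p = 0.942). Olaparib-treated libraries read 367, 377 and 371 FPKM in wild-type libraries and 353, 286 and 377 FPKM in knockout cells. siPARP1-treated libraries read 487, 469 and 467 FPKM in wild-type libraries and 475, 335 and 317 FPKM in knockout cells. Olaparib-treated libraries all lay under the untreated ones, and the siPARP1-treated knockout libraries were split, with the first at the wild-type level and the other 2 far below.

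The olaparib change of HSP90AA1 was -0.36 ± 0.12 in knockout cells (adjusted p = 0.0243) and -0.20 ± 0.12 in wild-type cells (adjusted p = 0.199), where the fit on these 2 groups alone called it (-0.20, adjusted p = 0.00809). The knockout call was lost without the first or second untreated library (-0.35, adjusted p = 0.058 and 0.0581) or the second olaparib library (-0.24, adjusted p = 0.123). Under siPARP1 the knockout was lower than wild type by 0.36 (-0.36 ± 0.12, adjusted p = 0.0449). Without the first knockout library this was -0.54 (adjusted p = 0.000621), and without the second or the third it was -0.29 or -0.25 (adjusted p = 0.154 and 0.184). Leaving out the first, second or the third wild-type library gave -0.34, -0.37 and -0.37, which did not pass (adjusted p = 0.112, 0.0874 and 0.0848). The siPARP1 change in knockout cells, -0.22 ± 0.12 (adjusted p = 0.131), and the siPARP1 interaction, -0.38 ± 0.17 (adjusted p = 0.244), passed without that first library (-0.40, adjusted p = 0.00123, and -0.56, adjusted p = 0.0139). The change in knockout cells also passed under both other scalings (-0.33 and -0.38, adjusted p = 0.0324 and 0.0154).

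The transcript table divided HSP90AA1 between ENST00000216281 and ENST00000334701 in a way that followed single libraries and not groups. ENST00000334701 read 365.176 FPKM in the third untreated wild-type library and 0.385 and 0.852 FPKM in the other 2. It read 317.627 and 308.358 FPKM in the first and the third olaparib-treated wild-type libraries and 0.579 FPKM in the second. In siPARP1-treated cells it read at most 1.308 FPKM. The gene values of these libraries did not follow the split, and what set it was not tested. HSP90AA1 also overlaps WDR20 on the opposite strand, whose reads cannot be told apart from its own without the strand setting. No transcript-level change of HSP90AA1 is reported for that reason.

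**Figure D2:**
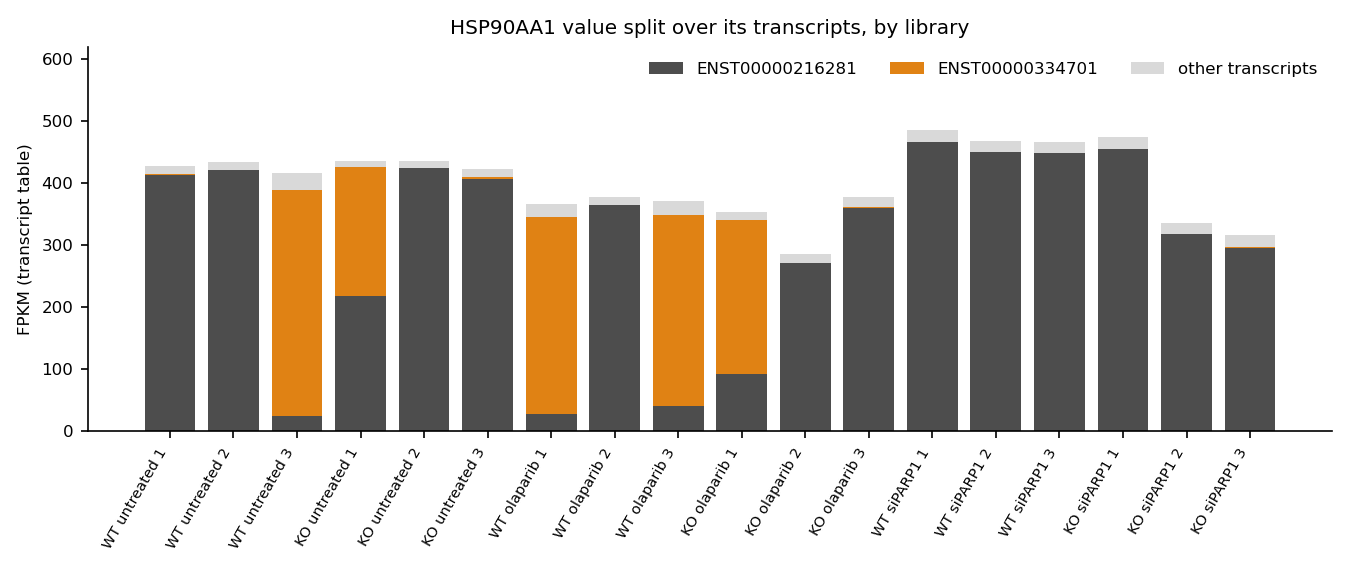
FPKM of HSP90AA1 in the transcript table, stacked by transcript, for each of the 18 libraries. ENST00000334701 holds over 200 FPKM in 5 libraries from 4 groups and little in the other 13, while the summed height varies much less.

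HSPB1 (HSP27, chr7:76302544-76304295), an ATP-independent small heat shock protein that binds actin and unfolding proteins, rose under olaparib. It read 138, 142 and 146 FPKM in untreated wild-type and 137, 142 and 131 FPKM in untreated knockout cells. Olaparib-treated libraries read 200, 206 and 201 FPKM in wild-type libraries and 178, 171 and 171 FPKM in knockout cells, and siPARP1-treated libraries lay at 125 to 151 and 139 to 149 FPKM. All 6 olaparib libraries stood above the other 12.

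HSPB1 rose under olaparib by 0.51 ± 0.059 in wild-type (adjusted p = 7.14e-06) and 0.34 ± 0.059 in knockout cells (adjusted p = 0.000242), and the 2 rises differed by -0.16 ± 0.084 (adjusted p = 0.368). Under siPARP1 the changes were -0.02 and 0.09 (adjusted p = 0.804 and 0.231), and the first passed as a fall only when scaled to a common sum over named genes (-0.15, adjusted p = 0.0409). Olaparib-treated knockout cells had less HSPB1 than wild-type cells, by -0.22 ± 0.059 (adjusted p = 0.0227). Its 10 Mb bin on chromosome 7 had a median difference of -0.17 over 67 genes under olaparib, and with bin medians removed the HSPB1 difference was -0.05 (adjusted p = 0.685). It was also lost on removal of any of the 3 wild-type libraries (-0.23, -0.21 and -0.23, adjusted p = 0.052, 0.0756 and 0.0538) or of the second or the third knockout library (-0.21 for both, adjusted p = 0.0702 and 0.0697). The other 8 small heat shock genes found in the table (CRYAB, CRYAA, HSPB2, HSPB3, HSPB6, HSPB7, HSPB8 and HSPB9) did not pass the filter, and the highest value among them was 0.394 FPKM.

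HSPD1 (HSP60, chr2:197486581-197516737), which forms the mitochondrial folding chamber with its lid HSPE1, varied within groups, with SDs of 3.05 to 35.6 FPKM on group means of 235 to 321 FPKM. Untreated libraries read 345, 287 and 283 FPKM in wild-type libraries and 229, 263 and 212 FPKM in knockout cells, without overlap (-0.37 ± 0.11, adjusted p = 0.0264). Olaparib-treated libraries read 273, 326 and 325 FPKM and 298, 252 and 301 FPKM, and siPARP1-treated libraries read 341, 342 and 280 FPKM and 296, 302 and 298 FPKM. In the treated cells the genotypes overlapped.

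The untreated difference of HSPD1 was lost without the first wild-type library (-0.28, adjusted p = 0.116) or the first or the third knockout library (-0.36 and -0.30, adjusted p = 0.0716 and 0.105), and with bin medians removed (-0.27, adjusted p = 0.107). In knockout cells HSPD1 rose under siPARP1 by 0.35 ± 0.11 (adjusted p = 0.0142), a call lost without the third untreated library (0.28, adjusted p = 0.0673) and under both other scalings (0.24 and 0.20, adjusted p = 0.0822 and 0.156). Its olaparib change in knockout cells, 0.27 ± 0.11 (adjusted p = 0.0543), passed without the second untreated or the second olaparib library (0.36 for both, adjusted p = 0.0233 and 0.0257). HSPE1, which lies head to head with HSPD1 and overlaps its annotated span on the other strand, read 305, 202 and 283 FPKM in untreated wild-type and 149, 212 and 139 FPKM in untreated knockout libraries (-0.66 ± 0.15, adjusted p = 0.00486). HSPD1 also has 18 processed copies in the table, at 3.85 to 4.47% of its value, and its listed transcripts summed to 15.54 to 79.41% of the gene value.

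**Figure D3:**
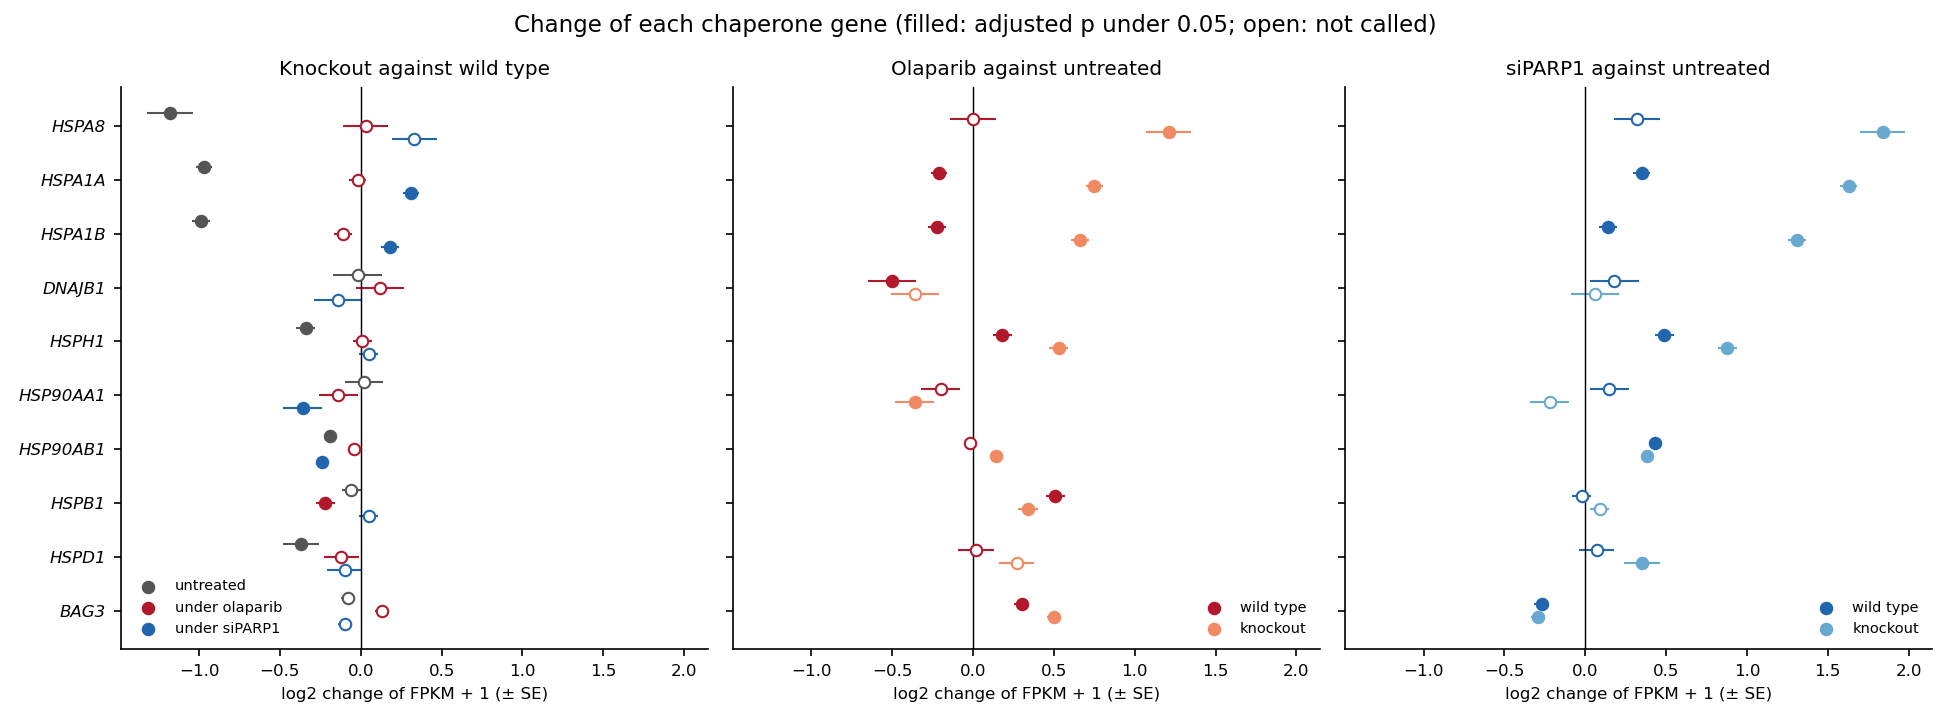
Log2 change of FPKM + 1 with its SE for each gene in 7 comparisons, in 3 panels on 1 scale; filled points passed an adjusted p under 0.05 and open points did not. In untreated cells every called point of the genotype panel lies left of 0, and in the treatment panels HSPA8, HSPA1A, HSPA1B and HSPH1 lie farther right in knockout than in wild-type cells.

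Counted by comparison, knockout against wild type without treatment called 6 of the 10 genes lower and 0 higher, where 10.9% of all genes tested were called lower and 9.58% higher. The 6 were HSPA8, HSPA1A, HSPA1B, HSPH1, HSP90AB1 and HSPD1. The median log2 change of the 10 genes was -0.26, and that of all genes was -0.01. Under olaparib the genotype difference passed for 1 of 10 genes, HSPB1, which was lower, where 7.16% of all genes were lower and 5.68% higher. Under siPARP1 HSPA1A and HSPA1B were higher (2 of 10, with 11.8% of all genes higher) and HSP90AA1 and HSP90AB1 lower (2 of 10, with 11.2% of all genes lower). Because the 10 genes were chosen with earlier results of these data known, an excess over the shares of all genes is no independent observation. The same holds for the counts that follow.

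Olaparib called 3 genes higher (HSPH1, HSPB1 and BAG3) and 3 lower (HSPA1A, HSPA1B and DNAJB1) in wild-type cells, where 24.9% of all genes were higher and 20.4% lower. Among knockout libraries it called 7 higher and 1, HSP90AA1, lower, with 25.2% of all genes higher and 22.0% lower, and the median of the 10 genes was 0.42 against 0.03 for all genes. siPARP1 called 4 higher and 1, BAG3, lower in wild-type cells, where 29.5% of all genes were higher and 22.3% lower. Among knockout libraries it called 6 higher and again BAG3 lower, where 31.9% of all genes were higher and 22.8% lower. Each pair of treatment comparisons in 1 genotype shares the untreated libraries, so the calls are given side by side only. Scaled to a common sum over named genes, the share of higher genes among all calls under siPARP1 went from 57.0 to 43.3% in wild-type and from 58.4 to 44.0% in knockout cells, and median-of-ratios scaling gave 47.9% in knockout cells.

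Set directly against siPARP1, olaparib gave higher HSPB1 and BAG3 in both genotypes (2 of 10, with 23.4% of all genes higher in wild-type and 22.4% in knockout cells) and lower values for 6 genes in each, with 28.3% and 29.7% of all genes lower. HSPA1A, HSPA1B, DNAJB1, HSPH1 and HSP90AB1 were lower in both, HSP90AA1 in wild-type and HSPA8 in knockout cells. BAG3 differed most among the higher ones, by 0.57 ± 0.044 in wild-type (adjusted p = 6.66e-08) and 0.79 ± 0.044 in knockout cells (adjusted p = 1.56e-09). HSPA1A differed by -0.56 ± 0.052 (adjusted p = 5.22e-07) and -0.88 ± 0.052 (adjusted p = 3.58e-09). DNAJB1 differed by -0.68 ± 0.15 in wild-type cells (adjusted p = 0.00163), a call lost from transcript sums (-0.09, adjusted p = 0.888), and HSP90AB1 by -0.44 ± 0.031 (adjusted p = 2.01e-08). HSPA8 was lower under olaparib by 0.63 in knockout cells (-0.63 ± 0.14, adjusted p = 0.00183). Its wild-type difference of -0.32 ± 0.14 did not pass (adjusted p = 0.0753) but passed without the second (-0.43, adjusted p = 0.0264) or the third (-0.41, adjusted p = 0.0434) siPARP1 library. The DNAJB1 call in knockout cells (-0.42 ± 0.15, adjusted p = 0.0306) was lost without the first or the third olaparib library or any siPARP1 library (-0.34 to -0.44, adjusted p = 0.053 to 0.115), and the HSP90AA1 call in wild-type cells (-0.35 ± 0.12, adjusted p = 0.0249) without the first or the third olaparib library or the first siPARP1 library (-0.33 to -0.35, adjusted p = 0.0557 to 0.0667).

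The interactions of treatment with genotype called HSPA8, HSPA1A, HSPA1B and HSPH1 for both treatments, each with a more positive change in knockout cells. Under olaparib HSPA1A and HSPA1B fell in wild-type and rose in knockout cells, and HSPH1 rose in both. That is 4 of 10 genes higher and 0 lower, where 1.40% of all genes were called higher and 1.66% lower for olaparib, and 2.74% and 2.52% for siPARP1. The remaining 6 genes did not pass in either interaction (limma, adjusted p = 0.075 to 0.9).

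Over the 18 libraries the values of HSPA8, HSPA1A, HSPA1B and HSPH1 ran together, with Pearson r of 0.87 to 0.98 between any 2 of them on the log2 scale. BAG3 and HSPB1 ran together at 0.75 and against DNAJB1, at -0.78 and -0.74. These are descriptions over 18 libraries that share 6 groups and their treatments. Outside the 10 genes, those nearest by the same measure were POLR1F, HDAC9 and MAP9 for HSPA8 (0.917 to 0.933), E2F3, HIPK3 and DNAJA1 for HSPH1 (0.965 to 0.966), RAB14, PSMB2 and ZBTB6 for HSP90AB1 (0.975 to 0.988), H2BC7, FOSB and GUCA1B for HSPB1 (0.947 to 0.951), and PPP2R3C, PTTG1IP and PIK3R3 for BAG3 (0.976 to 0.979). HSPA1A was nearest to STX1A (0.954) and to the HSPA8 copies HSPA8P1 and HSPA8P7, and HSPA1B to POLR1F, HMGA2 and HELQ (0.931 to 0.946). DNAJB1 (POFUT1, RAD51D and LONRF1, 0.864 to 0.89), HSP90AA1 (ANKRD36, RPRD2 and CERS2, 0.814 to 0.836) and HSPD1 (PPWD1, FBXL18 and IFT52, 0.807 to 0.86) had looser neighbours.

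Among the genes of the surrounding network, DNAJA1, a J-domain partner of HSC70, was lowest in untreated knockout cells and highest under siPARP1. It read 65.4, 64.6 and 64.3 FPKM in untreated wild-type and 46.6, 47.1 and 46.3 FPKM in untreated knockout cells (-0.46 ± 0.031, adjusted p = 1.12e-07). It rose in wild-type and knockout cells under olaparib by 0.24 and 0.58, and under siPARP1 by 0.60 and 0.97. Its interactions, 0.35 ± 0.044 (adjusted p = 0.000641) and 0.37 ± 0.044 (adjusted p = 0.00018), passed. Of 12 tested J-domain genes, 3 were lower and 0 higher in untreated knockout cells, where 10.9% of all genes were lower and 9.58% higher. Under siPARP1 5 were higher and 3 lower in wild-type cells, beside 29.5% higher and 22.3% lower among all genes.

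The other HSP70 and HSP110 genes went several ways. In untreated knockout cells 2 of 6 were lower, HSPA2 (3.33 ± 0.0908 against 6.69 ± 0.112 FPKM) and HSPA4 (59.4 ± 1.34 against 69.7 ± 1.27 FPKM), and 0 were higher. Among all genes 10.9% were lower and 9.58% higher. HSPA2 also fell in wild-type cells, by 0.98 under olaparib and 1.03 under siPARP1, and its interactions were 0.82 and 0.94. HSPA4 rose under both treatments in both genotypes. HSPA4L rose under olaparib, by 0.72 ± 0.08 in wild-type and 0.88 ± 0.08 in knockout cells (adjusted p = 4.47e-06 and 5.62e-07), and fell under siPARP1, by 0.68 and 0.59 (adjusted p = 6.12e-06 and 2.23e-05). Of the 8 HSP70 exchange factors and regulators beside the listed members, 3 fell under olaparib in each genotype (BAG1, BAG2 and BAG4) and 1, BAG5, rose in knockout cells. Among all genes 20.4% and 22.0% were lower and 24.9% and 25.2% higher. Under siPARP1 the list was mixed, with BAG6, HSPBP1 and ST13 higher and BAG4 and BAG5 lower in both genotypes, and BAG2 also lower in knockout cells. Among all genes 29.5% and 31.9% were higher and 22.3% and 22.8% lower, near the shares of this list.

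Among genes that work with HSP90, more were called higher under siPARP1 than under olaparib, and whether the treatments differ over the list was not tested. Under siPARP1, 11 of 17 co-chaperones were higher and 1 lower in wild-type cells, against 10 and 1 in knockout cells (among all genes 29.5% and 31.9% were higher, 22.3% and 22.8% lower), with list medians of 0.33 and 0.21 against 0.07 for all genes in both. CDC37, which loads kinases onto HSP90, went from 46.0 ± 4.52 to 86.8 ± 1.59 FPKM in wild-type cells (0.90 ± 0.066, adjusted p = 4.32e-08) and from 55.2 ± 3.41 to 106 ± 3.93 FPKM in knockout cells (0.94 ± 0.066, adjusted p = 2.45e-08). CHORDC1 rose by 0.43 ± 0.096 in wild-type cells (adjusted p = 0.00161) and by 0.68 ± 0.096 in knockout cells (adjusted p = 2.82e-05). FKBP5, an HSP90 co-chaperone known as a glucocorticoid target, fell under both treatments in both genotypes, by 0.93 and 0.62 under olaparib and 0.60 and 0.42 under siPARP1. Under olaparib 5 of the 17 were higher and 3 lower in wild-type, and 7 higher and 2 lower in knockout cells, where 24.9% and 25.2% of all genes were higher and 20.4% and 22.0% lower. The wild-type counts were thus near the shares of all genes. The list medians under olaparib were 0.05 and 0.11 against 0.03 for all genes in both.

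The cytosolic chaperonin TRiC and its partner prefoldin, which fold actin and tubulin, had 8 of 14 genes higher and 1 lower under siPARP1 in wild-type cells, and 7 higher and 3 lower in knockout cells, where 29.5% and 31.9% of all genes were higher and 22.3% and 22.8% lower. CCT3 went from 187 ± 14 to 268 ± 38.1 FPKM in wild-type cells (0.51 ± 0.11, adjusted p = 0.00164), while CCT7 fell from 263 ± 5.78 to 185 ± 7.02 FPKM (-0.51 ± 0.053, adjusted p = 1.64e-06). Untreated knockout cells had 4 of 14 lower and 0 higher, where 10.9% of all genes were lower and 9.58% higher. Mitochondrial chaperones and proteases had 5 of 11 lower and 1 higher under olaparib in knockout cells, and 3 lower and 0 higher in wild-type cells. Among all genes 22.0% and 20.4% were lower and 25.2% and 24.9% higher. LONP1 was among the lower genes of the list in both (-0.47 ± 0.061 and -0.45 ± 0.061, adjusted p = 2.21e-05 and 2.95e-05).

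Of the 4 tested genes of the heat shock factor list (HSF1, HSF2, HSF4 and HSBP1), 0 differed between the genotypes in any condition. Among all genes 5.68 to 11.8% were called higher and 7.16 to 11.2% lower in these comparisons. HSBP1, which is not itself a heat shock factor, was called higher under olaparib in both genotypes and under siPARP1 in knockout cells. HSF1, the main activator of heat shock genes, read 4.73 ± 0.614 FPKM in untreated wild-type and 6.14 ± 0.694 FPKM in untreated knockout cells (0.32 ± 0.17, adjusted p = 0.222). It did not pass in either treatment comparison of either genotype (adjusted p = 0.0714 to 0.874), and read 0.44 ± 0.17 higher under olaparib than under siPARP1 in wild-type cells (adjusted p = 0.045). HSF2 passed in none of the 11 comparisons (adjusted p = 0.0595 to 0.9). HSF4, named here after its values were seen because it was among the few that passed, rose from 0.601 to 0.81 FPKM in untreated wild-type libraries to 2.37 to 2.52 FPKM under olaparib and 2.41 to 4.4 FPKM under siPARP1 (1.03 ± 0.19 and 1.29 ± 0.19, adjusted p = 0.000504 and 5.19e-05). Untreated knockout libraries read 0.38 to 1.14 FPKM. HSF4 would not have passed the filter without the treated libraries, where it was high. Its p-values are therefore a description only. All values of this list are transcript levels, and the activity of HSF1 was not measured.

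Other genes known as heat-inducible were mixed. Their list shares genes with the lists above, among them DNAJA1, FKBP4, HSPE1, CHORDC1 and HSPA4L, so its counts are not separate observations. Of the 15 tested, 4 were lower and 1 higher in untreated knockout cells, where 10.9% of all genes were lower and 9.58% higher. Under olaparib 8 were higher and 2 lower in wild-type, and 9 higher and 1 lower in knockout cells, where 24.9% and 25.2% of all genes were higher and 20.4% and 22.0% lower. Under siPARP1 6 and 8 were higher and 2 lower in each genotype, where 29.5% and 31.9% of all genes were higher and 22.3% and 22.8% lower. SERPINH1, the collagen chaperone HSP47, rose under siPARP1 from 30.9, 23.7 and 22.2 to 47.2, 39 and 66.3 FPKM in wild-type libraries (0.94 ± 0.24, adjusted p = 0.0042), and from 29.3, 18 and 14.4 to 69.4, 66.2 and 64.6 FPKM in knockout libraries (1.71 ± 0.24, adjusted p = 2.67e-05). IER5, a feedback partner of HSF1, rose under olaparib (0.54 ± 0.047 in wild-type cells, adjusted p = 3.63e-07), fell under siPARP1 (-0.34 ± 0.047, adjusted p = 2.28e-05), and was higher in knockout than in wild-type cells in all 3 conditions. HMOX1, which answers oxidative stress as well as heat, rose under siPARP1 by 1.19 ± 0.052 in wild-type cells (adjusted p = 2.30e-10). In knockout cells it rose by 0.93 ± 0.052 (adjusted p = 2.03e-09). Under olaparib it changed by -0.36 in wild-type and -0.22 in knockout cells (adjusted p = 6.05e-05 and 0.00346).

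**Figure D4:**
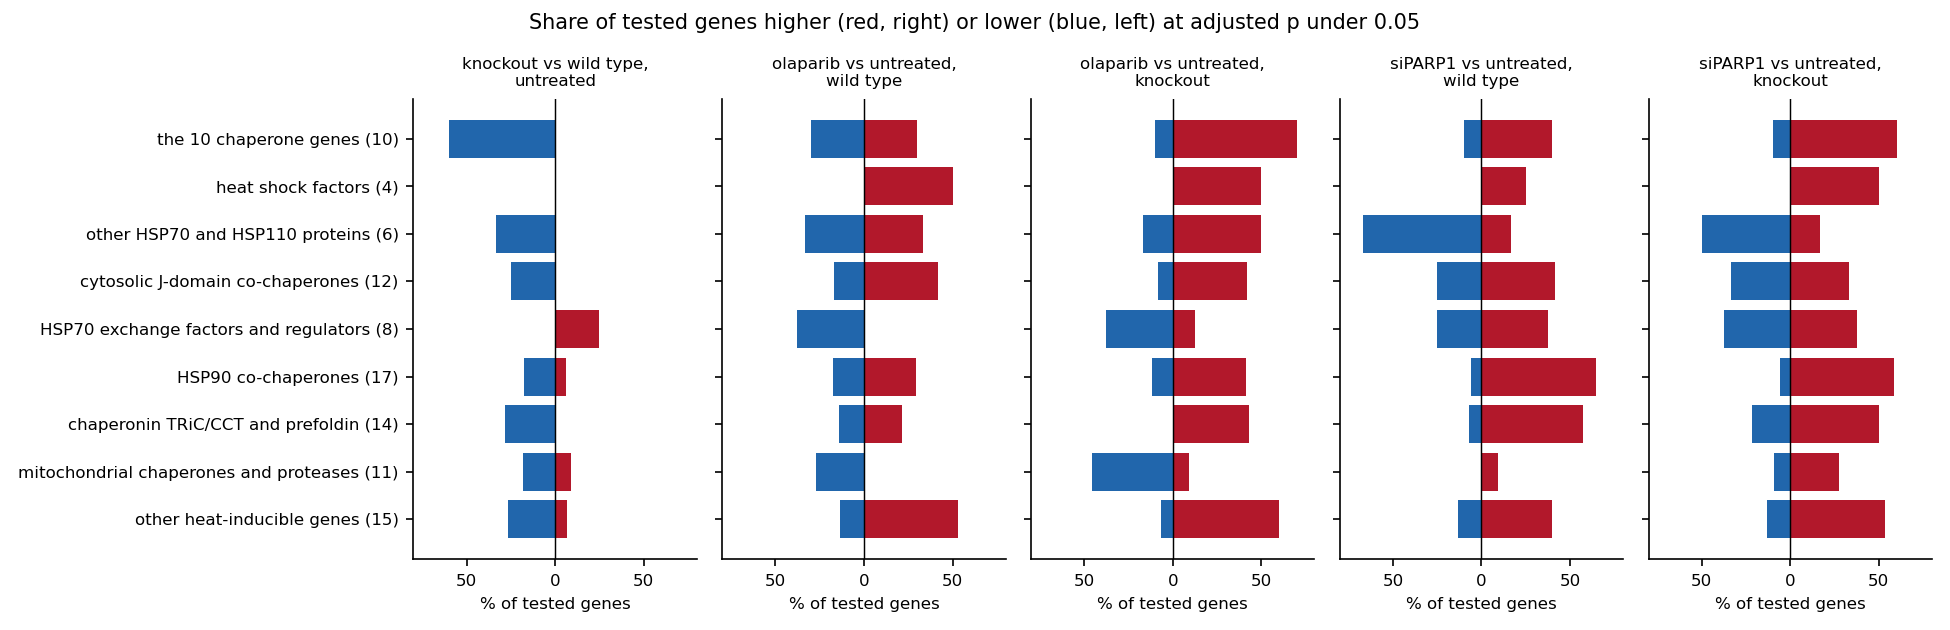
Percent of tested genes called higher (right, red) or lower (left, blue) at an adjusted p under 0.05 in 5 comparisons, for the 10 chaperone genes and 8 lists of related genes, with the number of tested genes in brackets. The list of heat-inducible genes shares genes with other lists. The bars of the 10 genes lie left of 0 in untreated knockout cells, and the longest right-hand bars of the HSP90 co-chaperones are those under siPARP1. Shares of all genes tested are not drawn. In untreated knockout cells 9.58% were higher and 10.9% lower. In wild-type and knockout cells 24.9% and 25.2% were higher and 20.4% and 22.0% lower under olaparib. Under siPARP1 29.5% and 31.9% were higher and 22.3% and 22.8% lower.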

How the data were processed

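RNA of 18 MDA-MB-231 libraries in 6 groups of 3 was analysed. The deposited gene and transcript tables hold FPKM, made by the authors from polyA-selected RNA. The submitters' processing notes name GRCh38, fastp 0.23.2, HISAT2 2.2.1, featureCounts 2.0.3 and StringTie 2.2.1, without saying which tool made the FPKM or with which strand setting. Absolute depth is therefore unknown, and the number of libraries limits the precision.

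Groups were taken from the titles and genotype and treatment labels. Genes that reached 1 FPKM in 3 or more libraries (15764 of 62830) were tested on log2(FPKM + 1) with limma 3.58.1 (R 4.3.3), in 1 fit of all 6 groups with a trended prior and 12 residual degrees of freedom. The 11 comparisons were adjusted by Benjamini-Hochberg over all genes tested, and an adjusted p under 0.05 was a call. Fold changes on this scale understate the change of low genes. The test was checked on simulated data.

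Alternatives were a pseudocount of 0.1, no filter, a filter at 5 FPKM, median-of-ratios scaling, scaling to a common sum over named genes (TPM), transcript sums, a constant prior variance, a fit of the compared groups alone, a replicate block, removal of each library, removal of the median of each 10 Mb bin from genotype differences, and the sum of HSPA1A and HSPA1B. The members and gene lists were chosen with earlier results of these data known. All members are described. Named besides them are the 3 genes most correlated with each member, up to 3 rises and 3 falls of a list with a mean of at least 5 FPKM, HSF1, HSF2, TRIM27 and PARP1. Gene positions come from GENCODE 29 on GRCh38 and were matched to 58308 genes, and promoter windows come from RefSeq (GRCh38.p14).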

Additional observations from a re-analysis of the deposited data

Results flagged for a closer look

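The interaction of treatment with genotype was called for 4 of the 10 genes under both treatments (limma). Among all genes, 1.40% were called higher for olaparib and 2.74% for siPARP1. For olaparib the response in knockout cells exceeded that in wild-type cells by 1.21 for HSPA8 (adjusted p = 0.0043), 0.96 for HSPA1A (adjusted p = 6.24e-06), 0.88 for HSPA1B (adjusted p = 2.49e-05) and 0.35 for HSPH1 (adjusted p = 0.0369), all on the log2(FPKM + 1) scale. For siPARP1 it did so by 1.52 for HSPA8 (adjusted p = 0.000401), 1.28 for HSPA1A (adjusted p = 1.51e-07), 1.17 for HSPA1B (adjusted p = 8.49e-07) and 0.38 for HSPH1 (adjusted p = 0.015). The call of HSPH1 for olaparib was lost in 12 of 21 alternatives. The untreated libraries are shared by both sets of values. All 4 genes were lowest in untreated knockout cells, and a lower start cannot be told apart from an altered response.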

How the results depend on the processing

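Of 110 results for single genes, 61 passed, and 45 of these kept their call and direction under every alternative run, while 16 lost it under at least 1. Over 1789 alternatives of these results, 87 lost a call, 26 gained one for 14 results, and 36 differed in sign with neither value called. Of the counts of called genes, 166 of 180 alternatives stayed within 1.5 times the main count.

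Of the 10 genes, the genotype comparison under olaparib called 2 with the filter at 5 FPKM and 2 with median-of-ratios scaling, and 0 to 1 without single libraries, against 1. Under siPARP1 it called 2 without a filter, with the filter at 5 FPKM and in the fit of the compared groups alone, and 2 to 4 without single libraries, against 4. The filter at 5 FPKM, which removes HSPA1A and HSPA1B, left 3 calls for siPARP1 in wild-type cells and 2 for the siPARP1 interaction. From transcript sums, which cover DNAJB1 and HSPD1 in part, HSPD1 under siPARP1 in knockout cells was -0.66 (adjusted p = 0.345) and DNAJB1 for olaparib against siPARP1 in knockout cells was 0.49 (adjusted p = 0.415), both with the sign turned.

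Over all genes, the fit of the compared groups alone called 2144 for untreated genotype, 2213 for genotype under siPARP1 and 500 for the siPARP1 interaction, against 3227, 3634 and 829. With bin medians removed, 1228 were called for genotype under olaparib and 2329 under siPARP1, against 2023 and 3634. Without the first untreated wild-type library 313 were called for the olaparib interaction, against 482. Apart from fewer samples in some of these fits, the cause was not tested.

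Libraries with the same replicate number did not deviate together, with correlations of -0.071 to 0.087 and 0 of 45 pairs over 0.1, so the numbers were not taken as pairs. With a replicate block, 109 of the 110 results for single genes stayed on their side of the threshold, and DNAJB1 under olaparib in knockout cells, -0.36, gained a call (adjusted p = 0.0348).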
